A study of Homo sapiens with 21 samples.

Results

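The genes described here are 10 regulators of the G1 phase of the cell cycle: the cyclins CCND1, CCND2, CCND3, CCNE1 and CCNA1, the cyclin-dependent kinases CDK2, CDK4 and CDK6, and the kinase inhibitors CDKN1B and CDKN2C. They were followed across 3 human acute myeloid leukaemia lines in which the tyrosine kinase SYK was knocked down. Members were found by the gene symbols that the platform annotation gives to each probe set, the group of short probes that reads a transcript. Of the 10 genes, 8 had a probe set annotated to that symbol alone, among 12165 genes tested. CCND2 had 3 such probe sets, CCND1 had 2 and the other 6 genes had 1 each. For CDK2 the annotation lists 3 probe sets, all shared with the symbol BCO2, so their values are given by probe set and are not attributed to either gene. CDKN2C was not analysed here.

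The study, titled for SYK as a regulator of FLT3, compared MOLM-14, U937 and HL-60 cells carrying a short hairpin RNA against luciferase (shLuc) or against SYK (shSYK_1 or shSYK_2). MOLM-14 is known to carry an internal tandem duplication in the receptor kinase FLT3, U937 is a monocytic line and HL-60 is a promyelocytic line. In each line 3 arrays carried shLuc and 2 arrays carried each SYK hairpin, 21 Affymetrix HT HG-U133A arrays in 9 groups. All groups, controls included, were transduced cells put under puromycin at 1 µg/ml from 48 h after infection, with total RNA taken at day 5. The labels speak of transductions done in triplicate or duplicate, so the spread behind each p-value is that of repeated transductions within these 3 lines. Each line is an established culture, and no wild-type or untransduced cells were among the arrays used.

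D-type cyclins are induced by growth factor signals, bind CDK4 or CDK6 and begin the phosphorylation of the retinoblastoma protein. Cyclin E with CDK2 completes that phosphorylation, which frees E2F factors to switch on genes for DNA replication. CDKN1B (p27) inhibits cyclin E-CDK2, and the INK4 protein CDKN2C (p18) inhibits CDK4 and CDK6. In myeloid cells the G1 machinery is known for its link to differentiation, since maturing monocytes and granulocytes leave the cycle.

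The hairpins define the groups compared, so their SYK target sites are shown, in lower case with no part marked, as the labels give them.
shSYK_1: gcagcagaacagacatgtcaa
shSYK_2: gcaggccatcatcagtcagaa
Each site has 21 bases, and the longest run of bases that the 2 sites share has 5. On all 12 SYK hairpin arrays SYK lay below the whole shLuc range of the line. Its log2 intensity fell by 1.98 with shSYK_1 and by 2.43 with shSYK_2 averaged over the lines, which left 25.3% and 18.5% of the shLuc intensity. The further fall of 0.45 (95% confidence interval 0.34 to 0.56) with shSYK_2 passed the test (limma adjusted p = 2.9e-06). By line the further fall was 0.67 in MOLM-14 (adjusted p = 2.6e-05) and 0.44 in U937 (adjusted p = 0.0015), and in HL-60 the difference of -0.24 did not pass (interval -0.43 to -0.05, adjusted p = 0.072). Where the hairpins differed in depth of knockdown as well as in sequence, these cannot be told apart as sources of a difference between them.

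The labels of 1 array conflict: the title and treatment of HL-60 shSYK_2 replicate 1 name shSYK_2, and its source name names shSYK_1. It was kept as shSYK_2. This array also had an upper quartile intensity of 122.3, against 134.49 to 139.77 on the other arrays. For 7 of the 8 genes its value lay nearer to the other HL-60 shSYK_2 array than to the HL-60 shSYK_1 mean, the exception being CCND2. Array medians ranged from 18.4 to 20.6 in linear intensity, and arrays of a group correlated at 0.9939 to 0.9981 over the 12165 genes tested. The log2 ratio of 3′ to 5′ probe sets, a sign of RNA integrity, was 0.582 to 1.083 for ACTB and -0.186 to -0.011 for GAPDH. Of the myeloid markers, PTPRC (CD45) was at log2 8.27 to 10.20 and ELANE at 11.52 to 12.48 over all arrays. MPO, a granule peroxidase of the myeloid lineage, was at 12.10 to 12.85 in HL-60 and at only 3.14 to 3.66 in U937, and the progenitor marker CD34 was at 3.74 to 4.33 throughout. Defining markers of T cells (CD3E, highest value 3.12), B cells (MS4A1, 3.75) and epithelium (EPCAM, 2.44) were near the bottom of the scale. Some other genes of those lists were brighter: NKG7 of the T and NK cell list was at 6.68 to 10.44 and BLNK of the B cell list reached 6.59. Of the epithelial and stromal list KRT18 reached 7.68, ACTA2 8.82 and PECAM1 9.78. TFRC of an erythroid list was at 9.57 to 12.14.

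SYK knockdown was accompanied by changes in 7 of the 8 genes when the 3 lines and both hairpins were averaged. CCND3, CCNA1 and CDKN1B rose, by 0.40, 0.40 and 0.26 in log2 intensity. CCND2, CCNE1, CDK4 and CDK6 fell, by 0.27, 0.35, 0.27 and 0.63, and CCND1 did not pass the test (0.0071, adjusted p = 0.94). A gene was called where limma's Benjamini-Hochberg adjusted p over all 12165 genes was under 0.05. By that rule 17.1% of all genes rose and 17.0% fell in the same comparison, so a call is common here and the sizes carry more than the count. The median change of the 8 genes was -0.13, against 0.0054 for all genes. Not all 7 changes were shared by the hairpins. CCND3 had -0.013 with shSYK_2 (adjusted p = 0.86) and CCNE1 had -0.056 with shSYK_1 (adjusted p = 0.47). CCNA1 had 0.96 with shSYK_1 and -0.16 with shSYK_2, both called, and in HL-60 it fell by 0.56 over both hairpins. Read from brightest probe sets, CDK4 alone of the 8 had all SYK hairpin arrays on 1 side of their line's shLuc range in all 3 lines. The other CCND2 probe sets, 200951_s_at and 200952_s_at, did so too. The share of all genes that lie apart from shLuc in this way was not counted, here or for the array counts below.

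**Figure D1:**
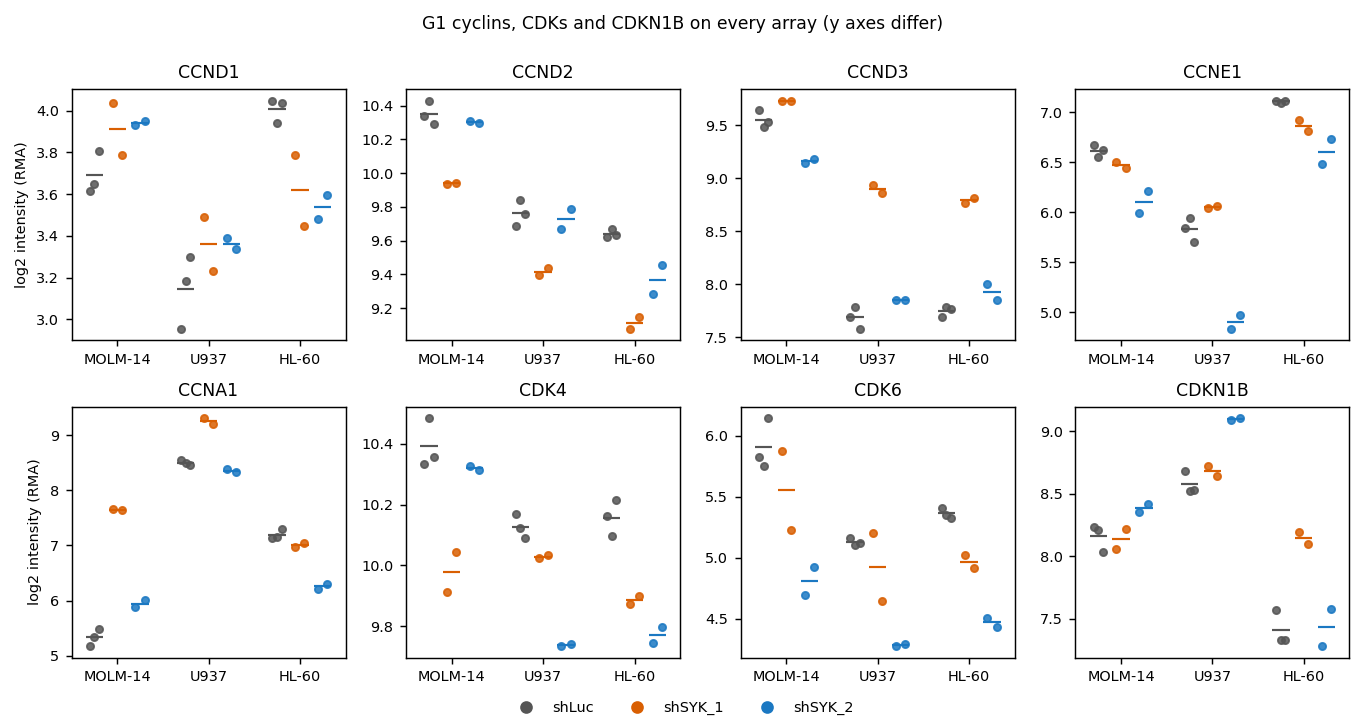
The log2 RMA intensity of each gene is plotted on the y axis for all 21 arrays, grouped by line on the x axis, with 1 point per array, colours for the hairpins and a bar at each group mean. CDK4 points of both SYK hairpins lie below the shLuc points in every line, narrowly so for shSYK_2 in MOLM-14. CCND3 and CCNA1 separate the hairpins from each other.

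Cyclin D1 (CCND1) was dim. Its brighter probe set, 208711_s_at, never exceeded a linear intensity of 16.6, below the median of every array. In MOLM-14 its log2 intensity was 3.62, 3.65 and 3.81 with shLuc, 4.04 and 3.79 with shSYK_1, and 3.93 and 3.95 with shSYK_2. In U937 it was 2.95, 3.18 and 3.30 with shLuc, 3.49 and 3.23 with shSYK_1, and 3.39 and 3.34 with shSYK_2. In HL-60 it was 4.05, 3.94 and 4.04 with shLuc, 3.79 and 3.45 with shSYK_1, and 3.48 and 3.59 with shSYK_2. The SYK hairpin arrays overlapped with shLuc in MOLM-14 and U937 and lay below it in HL-60, where CCND1 fell by 0.43 (interval 0.22 to 0.64, adjusted p = 0.0037). The other probe set, 208712_at, gave a different picture: 0.35 in MOLM-14 (adjusted p = 0.024), -0.30 in U937 (adjusted p = 0.067) and -0.081 in HL-60 (adjusted p = 0.64). Those p-values come from a fit over 19724 probe sets, of which 16.8%, 12.2% and 21.3% were called in MOLM-14, U937 and HL-60. Since the probe sets disagree and RMA gives no detection call, the direction for CCND1 is not settled by these arrays.

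Cyclin D2 (CCND2), a D-type cyclin common in blood cells, fell in each line, by 0.23 in MOLM-14 (adjusted p = 0.0096), 0.19 in U937 (adjusted p = 0.037) and 0.40 in HL-60 (adjusted p = 8.8e-05). On its brightest probe set, 200953_s_at, MOLM-14 had 10.34, 10.43 and 10.29 with shLuc, 9.93 and 9.94 with shSYK_1, and 10.31 and 10.29 with shSYK_2. U937 had 9.69, 9.84 and 9.76 with shLuc, 9.39 and 9.44 with shSYK_1, and 9.67 and 9.79 with shSYK_2. HL-60 had 9.62, 9.67 and 9.63 with shLuc, 9.08 and 9.15 with shSYK_1, and 9.28 and 9.46 with shSYK_2. All 6 shSYK_1 arrays thus lay below shLuc, and shSYK_2 arrays did so fully in HL-60 alone. The MOLM-14 call was lost without MOLM-14 shLuc replicate 2 (-0.19, adjusted p = 0.060). The U937 call was lost in 10 of 31 alternative settings, among them without U937 shLuc replicate 2 (-0.15, adjusted p = 0.17). Averaged over lines, CCND2 fell by 0.43 with shSYK_1 (adjusted p = 2.7e-07) and by 0.12 with shSYK_2 (adjusted p = 0.035). The shSYK_2 call was lost in 11 of 30 alternative settings, among them without HL-60 shSYK_2 replicate 1 (-0.090, adjusted p = 0.12).

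The 3 CCND2 probe sets gave the same direction for the knockdown and opposite signs for the difference between hairpins. Averaged over lines, 200953_s_at, 200951_s_at and 200952_s_at fell by 0.27, 0.62 and 0.75, and all 3 were called, as were 30.7% of the 19724 probe sets. With shSYK_1 their changes were -0.43, -0.52 and -0.65, and with shSYK_2 they were -0.12, -0.71 and -0.85. All 3 were called with each hairpin, where 31.2% and 27.3% of probe sets were. The shSYK_2 minus shSYK_1 difference was 0.31 for 200953_s_at (adjusted p = 2.9e-05 over genes), -0.18 for 200951_s_at (adjusted p = 0.049) and -0.20 for 200952_s_at (adjusted p = 0.32), beside 31.8% of probe sets called. With the mean of the 3 probe sets the difference was -0.025 (adjusted p = 0.81). Which hairpin lowered CCND2 more therefore depends on the probe set read, and 200952_s_at was the dimmest and most variable of them.

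**Figure D2:**
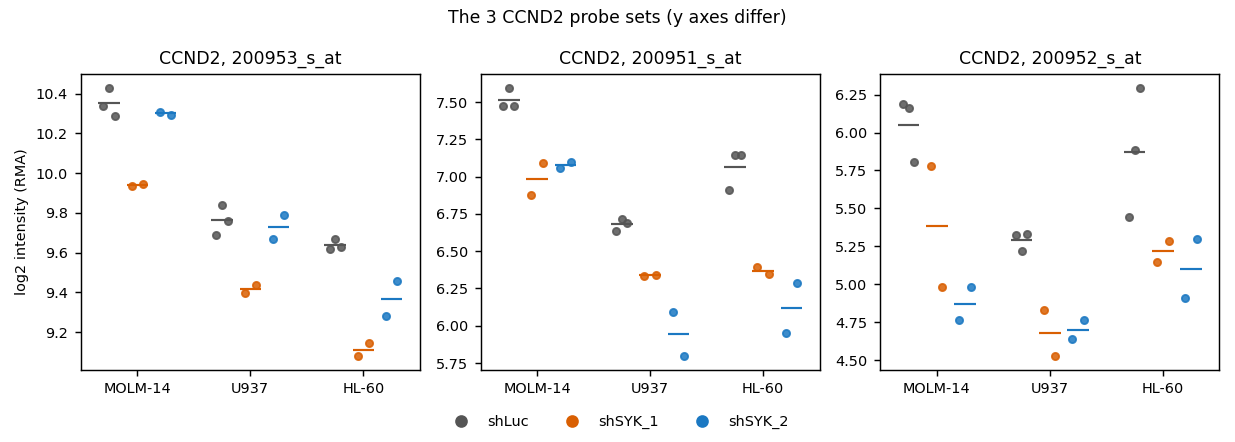
Log2 RMA intensity (y axis) of the 3 CCND2 probe sets on all 21 arrays, by line (x axis) and hairpin (colour), with bars at group means. The shSYK_2 points of 200953_s_at sit near shLuc in MOLM-14 and U937, whereas on 200951_s_at they lie below it in all 3 lines.

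Cyclin D3 (CCND3), a D-type cyclin known for its part in lymphocyte and granulocyte development, rose in U937 and HL-60 and not in MOLM-14. In MOLM-14 its log2 intensity was 9.64, 9.49 and 9.53 with shLuc, 9.73 and 9.73 with shSYK_1, and 9.15 and 9.18 with shSYK_2. U937 had 7.70, 7.79 and 7.58 with shLuc, 8.93 and 8.86 with shSYK_1, and 7.85 and 7.86 with shSYK_2. HL-60 had 7.70, 7.78 and 7.77 with shLuc, 8.77 and 8.81 with shSYK_1, and 8.01 and 7.86 with shSYK_2. Of the 12 SYK hairpin arrays, 10 lay above the shLuc arrays of their line, and the exceptions were the MOLM-14 shSYK_2 arrays, which lay below. The rise with shSYK_1 was 2.31-fold in U937 (log2 1.21, adjusted p = 7.3e-09) and 2.06-fold in HL-60 (log2 1.04, adjusted p = 1.8e-08), against 0.18 in MOLM-14 (adjusted p = 0.082). With shSYK_2 the changes were -0.39 in MOLM-14 (adjusted p = 0.0013), 0.17 in U937 (adjusted p = 0.14) and 0.18 in HL-60 (adjusted p = 0.084). The hairpins therefore differed in every line, by -0.57, -1.04 and -0.86 in the same order, and the averages over hairpins of 0.69 in U937 (interval 0.56 to 0.81) and 0.61 in HL-60 (0.48 to 0.74) mostly reflect shSYK_1. With the array of conflicting labels placed in shSYK_1, the HL-60 average was 0.44 and no longer passed (adjusted p = 0.054).

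CDK4, a catalytic partner of the D cyclins, fell in all 3 lines by similar amounts: 0.24 in MOLM-14 (interval 0.13 to 0.36, adjusted p = 0.0038), 0.24 in U937 (0.13 to 0.36, adjusted p = 0.0049) and 0.33 in HL-60 (0.21 to 0.44, adjusted p = 0.00024). MOLM-14 had 10.33, 10.48 and 10.36 with shLuc, 9.91 and 10.04 with shSYK_1, and 10.33 and 10.31 with shSYK_2. In U937 the values were 10.17, 10.12 and 10.09 with shLuc, 10.02 and 10.03 with shSYK_1, and 9.73 and 9.74 with shSYK_2. In HL-60 they were 10.16, 10.10 and 10.21 with shLuc, 9.87 and 9.90 with shSYK_1, and 9.75 and 9.80 with shSYK_2. All 12 SYK hairpin arrays lay below the shLuc arrays of their line, though in MOLM-14 with shSYK_2 the margin was small and the change was -0.07 (adjusted p = 0.52). Averaged over lines the fall was 0.26 with shSYK_1 and 0.28 with shSYK_2, and the difference between hairpins was -0.021 (interval -0.11 to 0.07, adjusted p = 0.74). Within lines the hairpins did differ, with CDK4 higher by 0.34 with shSYK_2 in MOLM-14 (adjusted p = 0.0014) and lower by 0.29 in U937 (difference -0.29, adjusted p = 0.0059), so the average hides opposite signs.

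CDK4 is known as a transcriptional target of MYC, which binds the E-box CACGTG together with MAX. MYC intensity fell by 0.56 averaged over lines, 0.85 with shSYK_1 and 0.28 with shSYK_2, where CDK4 fell by 0.27, 0.26 and 0.28. Whether MYC had a part in the fall of CDK4 was not tested. The CDK4 promoter is shown because it held 3 E-boxes, the most among the windows of the measured genes. The window covers the 250 bases upstream of the RefSeq start site, chr12:57752311-57752560, minus strand, GRCh38.p14, with CACGTG in capitals.
CDK4: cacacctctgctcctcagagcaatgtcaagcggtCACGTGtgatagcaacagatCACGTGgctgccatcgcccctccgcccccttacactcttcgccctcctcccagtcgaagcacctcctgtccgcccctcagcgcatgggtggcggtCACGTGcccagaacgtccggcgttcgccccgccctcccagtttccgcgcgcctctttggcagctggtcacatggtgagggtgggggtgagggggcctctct
The E-boxes end 211, 191 and 96 bases before the start site. CACGTG reads the same on both strands, and it occurs in 6.34% of 35116 RefSeq promoter windows of this length. The RefSeq table held 12 windows for 7 of the 10 genes (CCND3, CCNE1, CCNA1, CDK4, CDK6, CDKN1B and CDKN2C), and 3 of the 12 held an E-box, the others being windows of CDKN2C. An E2F site, searched as TTTCCCGC, TTTCGCGC, TTTGCCGC or TTTGGCGC on both strands with overlaps allowed, occurred in 0 of the 12 windows and in 2.79% of all. A match describes letters in a window and was not related to binding here.

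CDK6, the other kinase partner of the D cyclins and a known brake on myeloid differentiation, fell by 0.63 on average (interval 0.46 to 0.80, adjusted p = 1.1e-05), the largest fall among the brightest probe sets of the 8 genes, while CCND2 fell by 0.75 on 200952_s_at. MOLM-14 arrays read 5.83, 5.75 and 6.15 with shLuc, 5.88 and 5.23 with shSYK_1, and 4.70 and 4.92 with shSYK_2. U937 arrays read 5.17, 5.11 and 5.12 with shLuc, 5.20 and 4.65 with shSYK_1, and 4.28 and 4.30 with shSYK_2. HL-60 arrays read 5.41, 5.35 and 5.33 with shLuc, 5.02 and 4.92 with shSYK_1, and 4.51 and 4.44 with shSYK_2. Every shSYK_2 array lay below shLuc in its line, while in MOLM-14 and U937 the shSYK_1 arrays differed from each other by more than the shLuc arrays did, with 1 of them inside or above the shLuc range. With shSYK_2, CDK6 fell by 1.10 (MOLM-14), 0.85 (U937) and 0.89 (HL-60), which is 2.14-fold, 1.80-fold and 1.86-fold lower. The average fall with shSYK_2 was 0.95 (adjusted p = 1.4e-06). Its only probe set was not bright, with 56.9% of probe sets dimmer. Over 30 alternative settings the change ran from -0.98 to -0.63 with shSYK_2 and from -0.69 to -0.43 over both hairpins, called in each. With shSYK_1 the average fall was 0.32 (interval 0.12 to 0.53, adjusted p = 0.015), a call lost without MOLM-14 shSYK_1 replicate 2 (-0.21, adjusted p = 0.070) or without U937 shSYK_1 replicate 2 (-0.23, adjusted p = 0.073). The U937 average of both hairpins, -0.53 (adjusted p = 0.017), was also lost without U937 shSYK_1 replicate 2 (-0.39, adjusted p = 0.078), and without U937 shLuc replicate 1 (-0.51, adjusted p = 0.061) or 3 (-0.53, adjusted p = 0.050).

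Cyclin E1 (CCNE1), the partner of CDK2 at the end of G1, fell in each line over both hairpins, by 0.33 in MOLM-14 (adjusted p = 0.0048), 0.35 in U937 (adjusted p = 0.0039) and 0.37 in HL-60 (adjusted p = 0.0014). The shLuc arrays gave 6.67, 6.56 and 6.62 in MOLM-14, 5.85, 5.95 and 5.71 in U937, and 7.12, 7.10 and 7.12 in HL-60. With shSYK_1 the values were 6.50 and 6.45 in MOLM-14, 6.04 and 6.07 in U937, and 6.92 and 6.81 in HL-60. With shSYK_2 they were 5.99 and 6.21 in MOLM-14, 4.84 and 4.97 in U937, and 6.48 and 6.73 in HL-60. All shSYK_2 arrays lay below shLuc, whereas the U937 shSYK_1 arrays lay above it. The fall with shSYK_2 was 0.65 on average (interval 0.54 to 0.76, adjusted p = 9.1e-08), and in U937 it was 0.93, or 1.90-fold lower (adjusted p = 1.5e-06). With shSYK_1 the average was -0.06 (interval -0.17 to 0.05, adjusted p = 0.47). The difference between hairpins, -0.59 (interval -0.71 to -0.47, adjusted p = 3.8e-07), passed the test in MOLM-14 (-0.37) and U937 (-1.15) and did not in HL-60 (-0.26, adjusted p = 0.071).

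Among the probe sets annotated to BCO2 and CDK2 together, 204252_at was the brightest. Its log2 intensity in MOLM-14 was 7.51, 7.52 and 7.61 with shLuc, 7.09 and 7.35 with shSYK_1, and 7.12 and 7.12 with shSYK_2. In U937 it was 7.08, 6.91 and 7.04 with shLuc, 7.03 and 7.03 with shSYK_1, and 6.35 and 6.21 with shSYK_2. In HL-60 it was 7.77, 7.89 and 7.76 with shLuc, 7.59 and 7.48 with shSYK_1, and 7.40 and 7.68 with shSYK_2. In a fit over 22215 probe sets, added after the data had been seen, it fell by 0.33 on average (interval 0.24 to 0.43, adjusted p = 2.6e-05), and by 0.37, 0.35 and 0.27 in MOLM-14, U937 and HL-60. It fell by 0.19 with shSYK_1 and by 0.47 with shSYK_2, and the difference of -0.28 passed the test (adjusted p = 0.0015). In U937 its change was 0.022 with shSYK_1 (adjusted p = 0.93) and -0.73 with shSYK_2 (adjusted p = 4.6e-05). The same fit called 29.3% of probe sets on average, 15.8%, 11.4% and 20.2% in MOLM-14, U937 and HL-60, 29.7% with shSYK_1, 26.3% with shSYK_2 and 30.7% between hairpins. The probe set 211804_s_at had an average change of -0.16 (adjusted p = 0.051) and fell with shSYK_2 by 0.28 over the lines (adjusted p = 0.0082). By line that change was -0.71 in U937 (adjusted p = 0.00084), -0.11 in MOLM-14 (adjusted p = 0.66) and -0.010 in HL-60 (adjusted p = 0.97). The probe set 211803_at, at log2 2.60 to 3.10 on all arrays, had an average change of -0.061 (adjusted p = 0.37).

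Cyclin A1 (CCNA1), an A-type cyclin known from the germline and from myeloid leukaemia, had the widest range of the 8 genes, and its response differed in direction between lines. MOLM-14 had 5.17, 5.34 and 5.49 with shLuc, 7.66 and 7.64 with shSYK_1, and 5.88 and 6.005 with shSYK_2. U937 had 8.55, 8.49 and 8.46 with shLuc, 9.31 and 9.20 with shSYK_1, and 8.38 and 8.33 with shSYK_2. HL-60 had 7.14, 7.15 and 7.29 with shLuc, 6.97 and 7.04 with shSYK_1, and 6.22 and 6.31 with shSYK_2. All SYK hairpin arrays thus lay above shLuc in MOLM-14 and below it in HL-60, and in U937 the hairpins lay on opposite sides. Over both hairpins CCNA1 rose by 1.46 in MOLM-14 (interval 1.31 to 1.61, adjusted p = 1.9e-09) and by 0.30 in U937 (adjusted p = 0.0069) and fell by 0.56 in HL-60 (adjusted p = 1.8e-05). The U937 call was lost with the array of conflicting labels placed in shSYK_1, which left the value at 0.30 (adjusted p = 0.22). In MOLM-14 the rise was 4.98-fold with shSYK_1 (log2 2.32, interval 2.14 to 2.49, adjusted p = 1.7e-11) and 1.52-fold with shSYK_2 (log2 0.61, adjusted p = 9.0e-05). Averaged over lines the hairpins differed by -1.12 (interval -1.23 to -1.01), with lower CCNA1 for shSYK_2 in every line (MOLM-14 -1.71, U937 -0.90, HL-60 -0.74). The average with shSYK_2, -0.16 (adjusted p = 0.021), joined a rise in MOLM-14 with a fall of 0.93 in HL-60, and its call was lost without MOLM-14 shSYK_2 replicate 1 (adjusted p = 0.076), U937 shSYK_2 replicate 2 (0.060) or HL-60 shSYK_2 replicate 1 (0.057).

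CDKN1B (p27), the inhibitor of cyclin E-CDK2, rose by 0.26 averaged over lines (interval 0.16 to 0.37, adjusted p = 0.00037). In MOLM-14 it was at 8.23, 8.21 and 8.04 with shLuc, 8.05 and 8.22 with shSYK_1, and 8.35 and 8.42 with shSYK_2. In U937 it was at 8.68, 8.52 and 8.53 with shLuc, 8.72 and 8.64 with shSYK_1, and 9.09 and 9.11 with shSYK_2. In HL-60 it was at 7.57, 7.33 and 7.33 with shLuc, 8.19 and 8.10 with shSYK_1, and 7.28 and 7.58 with shSYK_2. Of the 12 SYK hairpin arrays, 8 lay above the shLuc arrays of their line, no line had all 4 of its SYK hairpin arrays above shLuc, and 1 HL-60 shSYK_2 array, that of conflicting labels, lay below. Different hairpins carried the rise in different lines: shSYK_2 in U937 (0.52, adjusted p = 0.0014) and shSYK_1 in HL-60 (0.74, or 1.67-fold, adjusted p = 3.2e-05). The change in MOLM-14 over both hairpins was 0.10 (interval -0.08 to 0.28, adjusted p = 0.47). The averages of the hairpins were alike, 0.27 and 0.26, with a difference of -0.016 (interval -0.15 to 0.12), yet within lines the difference was 0.42 in U937 (adjusted p = 0.010) and -0.72 in HL-60 (adjusted p = 0.00020). The U937 call over both hairpins (0.31, adjusted p = 0.017) was lost without U937 shLuc replicate 2 or 3 (adjusted p = 0.075 for each) or U937 shSYK_1 replicate 1 (0.055). With the array of conflicting labels placed in shSYK_1, the HL-60 value was 0.31 (adjusted p = 0.25) and the average 0.24 (adjusted p = 0.062).

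By line, SYK knockdown over both hairpins called 5 of the 8 genes in MOLM-14 (1 rose, 4 fell), 7 in U937 (3 rose, 4 fell) and 8 in HL-60 (2 rose, 6 fell). The same rule had 9.92% of all genes rising and 9.49% falling in MOLM-14, 7.16% and 7.58% in U937, and 11.4% and 13.1% in HL-60. CCND2, CCNE1, CDK4 and CDK6 were the 4 genes that fell in each line over both hairpins. With shSYK_1 alone CCNE1 and CDK6 were called in no line, and CCNE1 had 0.22 in U937 (adjusted p = 0.11). With shSYK_2 alone the brightest CCND2 probe set was called in HL-60 only. CDK4 was not called in U937 with shSYK_1 or in MOLM-14 with shSYK_2. Of all genes called in HL-60, 46.5% rose, and 35.3% did so when each array was centred on its median. Without the array of conflicting labels all 8 genes were still called in HL-60, at -0.40 for CCND1, -0.36 for CCND2, 0.57 for CCND3, -0.31 for CCNE1, -0.54 for CCNA1, -0.31 for CDK4, -0.66 for CDK6 and 0.45 for CDKN1B. With that array placed in shSYK_1, 6 were called in HL-60, since CCND3 (0.44, adjusted p = 0.054) and CDKN1B (0.31, adjusted p = 0.25) no longer passed. In U937 4 were then called, although the values there did not change. Shares of all genes were not counted for this placement. The U937 count went down to 4 without U937 shLuc replicate 3.

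The hairpins called 6 genes each: 3 rose and 3 fell with shSYK_1 (18.2% and 17.4% of all genes), and 1 rose and 5 fell with shSYK_2 (15.6% and 14.7%). CDK4, CDK6 and CCND2 fell and CDKN1B rose with each hairpin, and CCNA1 rose with shSYK_1 and fell with shSYK_2. CCND3 was called with shSYK_1 alone and CCNE1 with shSYK_2 alone, and for both the difference between hairpins passed the test. Between hairpins, CCND2 was higher with shSYK_2 and CCND3, CCNE1, CCNA1 and CDK6 were lower, 1 and 4 of 8 genes, beside 17.3% of all genes higher and 18.4% lower. Without the array of conflicting labels the shSYK_2 count was 4, since CCND2 (-0.090, adjusted p = 0.12) and CCNA1 (-0.14, adjusted p = 0.057) no longer passed. With it placed in shSYK_1, CDKN1B passed with neither hairpin (0.18, adjusted p = 0.23, and 0.31, adjusted p = 0.079). Then 5 genes were called with shSYK_1 and 3 with shSYK_2. Shares of all genes were not counted for these 2 changes of the array. Within lines, shSYK_1 called 3, 3 and 5 genes for MOLM-14, U937 and HL-60 (25.5%, 16.9% and 24.3% of all genes in either direction), and shSYK_2 called 4, 4 and 6 (16.6%, 16.2% and 21.5%). The difference between hairpins within a line called 6, 7 and 4 genes for the lines in that order, beside 25.9%, 23.0% and 22.2% of all genes. Only CCND1 was called in none of those 3 differences, and its intervals there ran from -0.36 to 0.30.

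**Figure D3:**
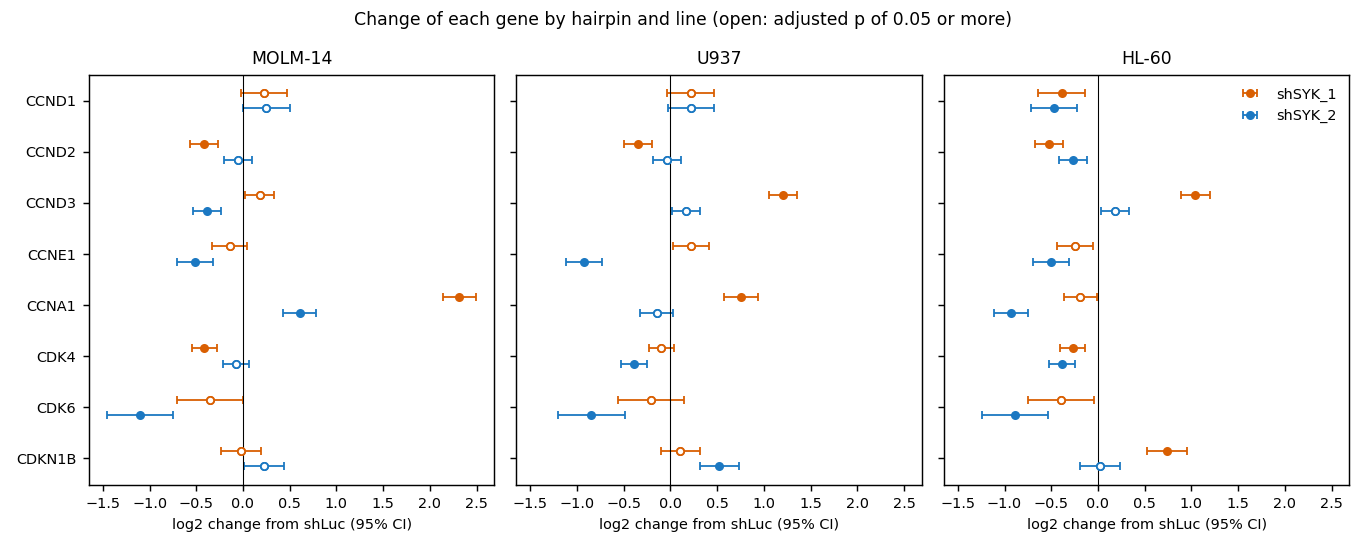
Log2 change from shLuc (x axis) with its 95% confidence interval for each gene (y axis) and SYK hairpin (colour) in the 3 lines, with open symbols where the adjusted p was 0.05 or more. CCNA1 with shSYK_1 in MOLM-14 is at 2.32, CCND3 with shSYK_1 is at 1.21 in U937 and 1.04 in HL-60, and CDK6 with shSYK_2 lies at -0.85 or below in every line.

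The 3 lines already differed in these genes under shLuc. Levels were compared for each probe set across lines and not between genes, because probe sets differ in brightness for the same amount of RNA. MOLM-14 had the highest CCND3, with 9.55 ± 0.081 (SD, n = 3) against 7.69 ± 0.10 in U937 and 7.75 ± 0.047 in HL-60, and the last 2 did not differ beyond their spread (-0.061, interval -0.20 to 0.08). For CCND2, CDK4 and CDK6 MOLM-14 was also highest, and U937 and HL-60 differed by 0.12, -0.029 and -0.23, none of which passed the test. CCNE1 ran from HL-60 (7.11 ± 0.012) through MOLM-14 (6.62 ± 0.059) to U937 (5.83 ± 0.12), and CCND1 followed the same order. CCNA1 ran from U937 (8.50 ± 0.045) through HL-60 (7.19 ± 0.084) to MOLM-14 (5.33 ± 0.16), and CDKN1B from U937 (8.58 ± 0.090) through MOLM-14 (8.16 ± 0.11) to HL-60 (7.41 ± 0.14). Each step in those orders passed the test, the closest being CCND1 in MOLM-14 against HL-60 (-0.32, adjusted p = 0.018), which was lost without MOLM-14 shLuc replicate 1 or 2 or without HL-60 shLuc replicate 1 or 3 (adjusted p of 0.051 to 0.068), and with its probe sets averaged (-0.12, adjusted p = 0.27). In MOLM-14 against U937, 6 genes were higher and 2 lower (25.7% and 26.4% of all genes), and in MOLM-14 against HL-60, 5 and 3 (23.0% and 26.4%). In U937 against HL-60, 2 were higher and 2 lower (25.8% and 27.0%).

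Comparisons with HL-60 depended on scaling. Centring each array on its median moved the median difference of all genes from -0.056 to -0.26 for MOLM-14 against HL-60 and from -0.045 to -0.30 for U937 against HL-60. The share of called genes that were higher went from 46.5% to 23.6% and from 48.8% to 24.0%. Under that scaling CDK4 (0.026, adjusted p = 0.71) and CDK6 (0.34, adjusted p = 0.059) no longer differed between MOLM-14 and HL-60 by the test. CCND3 (-0.31), CDK4 (-0.28) and CDK6 (-0.49) were then lower in U937 than in HL-60. On the other CCND2 probe sets U937 was below HL-60 by 0.38 and 0.58 (differences of -0.38 and -0.58), both called beside 49.6% of probe sets.

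The response to SYK knockdown differed between lines for 3 of the 8 genes, each read from its brightest probe set. CCNA1 differed in all 3 pairs of lines, by 1.16 for MOLM-14 minus U937 (interval 0.95 to 1.37, adjusted p = 5.6e-06), 2.02 for MOLM-14 minus HL-60 (1.81 to 2.23, adjusted p = 2.0e-09) and 0.86 for U937 minus HL-60 (0.65 to 1.07, adjusted p = 4.9e-05). For CCND3 the MOLM-14 response was lower than in U937 (-0.79, interval -0.97 to -0.61, adjusted p = 4.1e-05) and in HL-60 (-0.72, -0.90 to -0.53, adjusted p = 5.6e-05), the latter being -0.55 (adjusted p = 0.16) with the array of conflicting labels placed in shSYK_1. On its brighter probe set CCND1 responded more positively than in HL-60 in MOLM-14 (0.67, adjusted p = 0.0060) and U937 (0.65, adjusted p = 0.0091), and averaging its probe sets gave a U937 difference of 0.22 (adjusted p = 0.31). The 5 other genes passed no test of a difference in response, and the intervals for CDK4 ran from -0.16 to 0.25 over the 3 pairs while those for CDK6 ran from -0.62 to 0.54. In MOLM-14 minus U937, 1 gene was higher and 1 lower (1.76% and 1.94% of all genes), in MOLM-14 minus HL-60, 2 and 1 (3.88% and 4.60%), and in U937 minus HL-60, 2 and 0 (2.82% and 4.06%). The share of called genes with a higher response was 45.7% for MOLM-14 minus HL-60 and 41.0% for U937 minus HL-60, and 62.2% and 60.6% when arrays were centred on their medians.

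Other parts of the G1 network were read from lists of known genes. Of 29 measured genes that E2F factors switch on for S phase, 28 fell on average and none rose, beside 17.0% of all genes falling and 17.1% rising, at a median of -0.41 against 0.0054 for all genes. Among them were the clamp loader subunit RFC5 (-1.10), the GINS helicase subunit GINS1 (-0.88) and the single-strand binding protein RPA2 (-0.85), and only TK1 did not pass (-0.11, adjusted p = 0.17). Over both hairpins, all 29 fell in MOLM-14 (9.49% of all genes), all 29 in U937 (7.58%), and 16 in HL-60 (13.1%), where 1 rose (11.4%). The hairpins were unequal in U937, where 8 fell and 2 rose with shSYK_1 (median -0.06, beside 16.9% of all genes called in either direction) and all 29 fell with shSYK_2 (median -0.98, beside 16.2%). In MOLM-14 27 fell with each hairpin (25.5% of all genes called with shSYK_1 and 16.6% with shSYK_2), and in HL-60 19 fell and 1 rose with shSYK_1 (24.3%) and 9 fell and 1 rose with shSYK_2 (21.5%). Averaged over lines, 24 fell and 2 rose with shSYK_1 at a median of -0.30 (17.4% and 18.2% of all genes), and all 29 fell with shSYK_2 at a median of -0.49 (14.7%). Between hairpins 19 of the 29 were lower and 2 higher with shSYK_2 (18.4% and 17.3%).

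The other cyclins, kinases and inhibitors moved less uniformly, with 10 of 22 falling and 2 rising on average at a median of -0.067. The counts of this paragraph stand beside 17.0% of all genes falling and 17.1% rising, and the shares of these lists that rose were near or below the latter. WEE1, a kinase that restrains CDK1, fell by 0.59, cyclin E2 (CCNE2) by 0.50 and cyclin C (CCNC) by 0.44. CCNE2 had opposite signs with the hairpins, 0.57 with shSYK_1 and -1.58 with shSYK_2, both called. The inhibitor CDKN1A (p21) likewise rose by 0.31 with shSYK_1 and fell by 0.24 with shSYK_2, while CDKN2A fell with shSYK_1 (-0.52) and had 0.033 with shSYK_2 (adjusted p = 0.80). Of 15 pocket protein and E2F genes 5 fell and 2 rose: the E2F partners TFDP2 (-0.73) and TFDP1 (-0.54), MYBL2 (-0.50), E2F5 and RBBP4 fell, and the pocket proteins RB1 (0.16) and RBL2 (0.25) rose. Of 16 genes for turnover of G1 proteins 6 fell and 0 rose, led by SKP2 (-0.31), the F-box protein that marks p27 for destruction, AMBRA1 (-0.28), an adaptor that marks D cyclins for destruction, and the APC/C inhibitor FBXO5 (-0.27). Of 23 genes for growth factor inputs 9 fell and 4 rose, with the largest changes in the immediate early factor EGR1 (-1.12), KLF4 (0.73) and JUN (0.61).

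**Figure D4:**
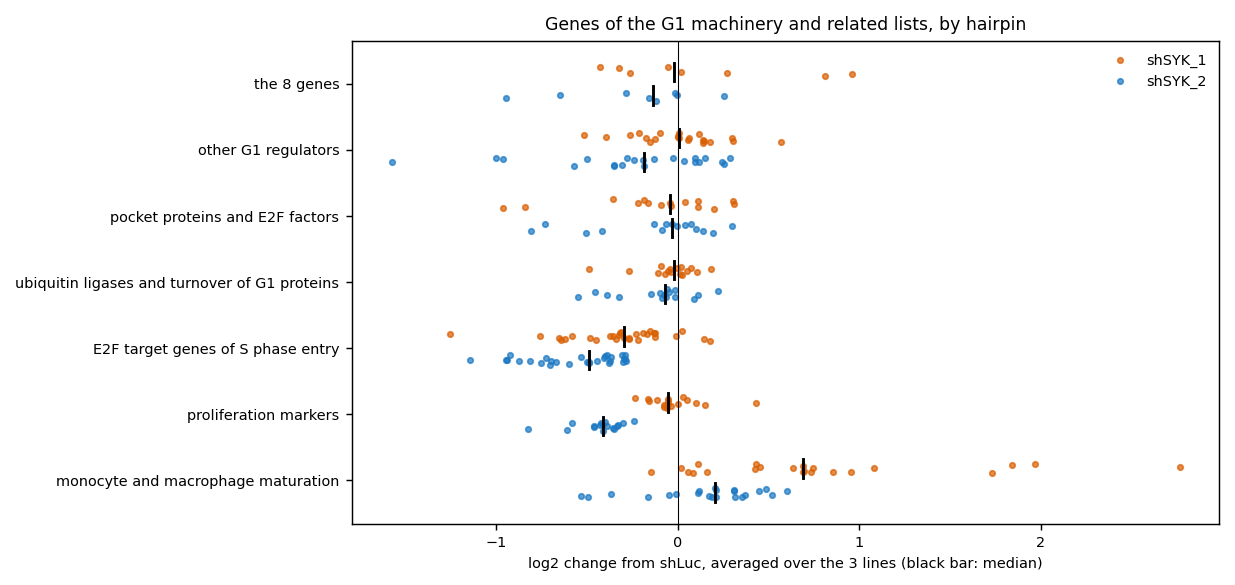
Log2 change from shLuc averaged over the 3 lines (x axis) for each gene of the lists on the y axis, with shSYK_1 and shSYK_2 in separate rows and a black bar at each median. E2F target genes lie mostly below 0 with both hairpins, proliferation markers lie below 0 with shSYK_2 and around 0 with shSYK_1, and monocyte genes extend to 2.77 with shSYK_1.

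Markers of proliferation and of monocyte maturation also differed between hairpins, with 17 of 17 and 16 of 22 lower with shSYK_2 than with shSYK_1 (18.4% of all genes), and 0 and 1 higher (17.3%). Averaged over lines, proliferation markers of the G2 and M phases fell in 17 of 17 genes with shSYK_2 (median -0.41, beside 14.7% of all genes) and in 2 of 17 with shSYK_1 (17.4%), where 2 rose (18.2%, median -0.05). With shSYK_2, 16 fell in MOLM-14 and 17 in U937, but 1 in HL-60 (median -0.07), beside 16.6%, 16.2% and 21.5% of all genes called in either direction. Their summed linear intensity in U937 was 9831 to 10255 with shLuc, 10591 to 11011 with shSYK_1 and 5757 to 6028 with shSYK_2. In MOLM-14 it was 8227 to 8494, 7306 to 7464 and 5799 to 5830, and in HL-60 it was 7962 to 8131, 8809 to 8994 and 7553 to 8007, in the same order. Of 22 monocyte and macrophage maturation genes, 16 rose with shSYK_1 (median 0.69, beside 18.2% of all genes) and 12 rose and 3 fell with shSYK_2 (median 0.21, beside 15.6% and 14.7%), led on average by the scavenger receptor CD36 (1.63), the integrin ITGAM (0.97) and CD14 (0.84). With shSYK_2 1 rose and 5 fell in MOLM-14, 9 rose and 1 fell in U937, and 10 rose and 1 fell in HL-60. Their sum in MOLM-14 was 3490 to 3551 with shLuc, 7767 to 8362 with shSYK_1 and 2464 to 2542 with shSYK_2, in U937 it was 2185 to 2353, 3852 to 3973 and 3148 to 3351, and in HL-60 it was 8367 to 8712, 15507 to 16274 and 10123 to 10674. The part of cell cycle distribution or maturation in the values of CCND3, CCNE1, CCNA1 and CDK6 was not tested, and in these bulk samples fewer cells of a type and less RNA per cell cannot be told apart. Lists for other lineages had medians of -0.03 to 0.07 on average, with no called change among 9 erythroid and 10 megakaryocyte genes. There were 1 rise and 2 falls among 14 T and NK cell genes, 1 fall among 7 B cell genes and 3 rises among 15 epithelial and stromal genes. On average 17.1% of all genes rose and 17.0% fell. By line the erythroid sum was 890 to 1091 with shLuc and 1620 to 1744 with shSYK_1 in U937. In the same order it was 4197 to 4554 and 3569 to 3832 in HL-60, and 2091 to 2401 and 2280 to 2288 in MOLM-14.

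For each gene the most similar genes were found by Pearson correlation of log2 intensity, after subtracting the shLuc mean of the line, over the 21 arrays, which share 3 lines and the same hairpin groups. CCND2 followed ALDH5A1 (r = 0.96), MYC (0.95) and EXOSC5 (0.95). CCND3 followed ITGAM (0.94), CORO1C (0.93) and SQSTM1 (0.93). CCNE1 followed HMGB1 (0.95), TRIP13 (0.95) and DTYMK (0.94), and CDK6 followed DNAJC3 (0.95), KIFBP (0.92) and SYNCRIP (0.92). CDK4 followed EZR (0.93), ERH (0.91) and TOMM34 (0.90), and CDKN1B followed IGF2R (0.93), PIK3C2A (0.88) and TNFRSF14 (0.87). CCNA1 followed FAM162A (0.95), CENPBD2P (0.90) and CCL23 (0.90), and CCND1 followed GP5 (0.87), MICAL2 (0.86) and OGN (0.86). Among the 28 pairs of the 8 genes, the highest correlation was between CCNE1 and CDK6 (0.78) and the lowest between CCND2 and CCND3 (-0.73). These values describe the arrays and carry no test.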

How the data were processed

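The deposited table held a linear intensity value for each probe set on each array. The submitters' processing notes name RMA, with its version and the image analysis not given in the sources used here. RMA corrects background, brings arrays to a common distribution and compresses small signals, so a fold can understate a change. The planned tests assumed log2 values, so log2 was taken first, with no pseudocount. Probe sets with several symbols or none and 62 controls were left out, and each gene was read from its brightest probe set. Symbols came from the platform annotation, updated by gene ID through RefSeq (GRCh38.p14). With limma 3.58.1 (R 4.3.3), a model of 9 group means was fitted to the 21 arrays (12 residual and 4.09 prior degrees of freedom), and two-sided p-values were adjusted by Benjamini-Hochberg over all genes. The model was tested on simulated data. Changes are differences between means of log2 values, SYK hairpins averaged with equal weight, and printed intervals are 95% confidence intervals. Few arrays per group limit the precision. RefSeq promoters gave the sequences.

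The members, gene lists and tests were chosen with earlier results of these data known. The plan named the 10 genes in every comparison, and from each list of G1 genes up to 3 called genes with the largest average change. CDKN2C was not analysed. The probe sets shared by BCO2 and CDK2 were not described for levels under shLuc or for differences in response between lines. CCNE2, CDKN1A, CDKN2A, TK1, the brighter markers of other lineages, some myeloid markers and the remaining called pocket protein genes were named after their values were seen. Alternatives were the mean of a gene's probe sets, other scalings, weights, priors, filters and sample choices, and each array left out.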

Additional observations from a re-analysis of the deposited data

Results flagged for a closer look

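In 7 comparisons the response to SYK knockdown, taken over both hairpins, differed between lines by the limma test of the difference, beside fewer than 5% of all genes higher and fewer than 5% lower. CCNA1 responded more positively in MOLM-14 than in U937 by 1.16 and than in HL-60 by 2.02, and more positively in U937 than in HL-60 by 0.86. CCND3 responded less positively in MOLM-14 than in U937 (-0.79) and in HL-60 (-0.72). CCND1 responded more positively than in HL-60 in MOLM-14 (0.67) and in U937 (0.65), on a dim probe set. Its other probe set had 0.43 (adjusted p = 0.089) and -0.22 (adjusted p = 0.47) for these differences in the fit over probe sets. For MOLM-14 minus U937 that probe set had 0.64 (adjusted p = 0.020), where the brighter one had 0.020 (adjusted p = 0.97 over genes). Shared arrays enter more than 1 of these differences. With the array of conflicting labels placed in shSYK_1, the CCND3 difference between MOLM-14 and HL-60 was -0.55 (adjusted p = 0.16). Groups of 2 or 3 arrays are too small for a check of single outlying arrays.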

How the results depend on the processing

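Of 104 values (8 genes in 13 comparisons), 71 were called. Shares of all genes called in each comparison are given above. Under most alternatives they were not counted, so the counts of members there have no such share beside them. Over 31 alternatives, 21 of which left out 1 array, 49 of the 71 were called in the same direction wherever a value could be had, and 22 were not called in that direction in at least 1. Of the 33 uncalled values, 6 were called in at least 1. When probe sets of a gene were averaged, CCND2 reversed between hairpins (-0.025) and in U937 against HL-60 under shLuc (-0.28, adjusted p = 0.015). The U937 count of 7 was 4 with the replicate block and 4 when HL-60 shSYK_2 replicate 1 was counted as shSYK_1. It was 4 to 7 with an array left out. Counting that array as shSYK_1 left the U937 values at 0.30 for CCNA1, 0.31 for CDKN1B and -0.19 for CCND2. Only their adjusted p changed, and the spread behind it is estimated over all 21 arrays. That placement also gave 3 in place of 6 for shSYK_2, which had 4 to 6 with an array left out. Centring arrays on their medians gave 7 in place of 4 for U937 against HL-60 under shLuc. The response difference of U937 and HL-60 went from 2 to 1 with averaged probe sets, with the dimmest 40% of genes left out, which removed CCND1, and with the replicate block. No other count moved by over 1.5 times. Within each line, the difference of replicates 1 and 2 with shSYK_1 correlated over genes with that of shSYK_2 at -0.21 to -0.035. These values gave no sign of pairing between the SYK hairpin groups, and pairing with shLuc arrays was not checked. The HL-60 value includes the array of conflicting labels. With the replicate number as a block, counts were 7 for the average, 4 in MOLM-14 and 7 in HL-60. Apart from the removed gene and the U937 calls lost at unchanged values, the cause of these changes was not tested. Dim genes such as CCND1 limit what the signal over background can show.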
